A study of Mus musculus with 12 samples.

Results

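The genes described here are the 44 DNA replication genes, out of 18193 mouse genes that could be measured. Their products license, open or copy the template of chromosome duplication, or supply deoxynucleotides for it. The 44 genes were chosen by name, with earlier results of these data known. Every probe set annotated with exactly 1 gene symbol from the list was taken, which gave 99 probe sets, and where a gene had several the most variable one over the 12 arrays (by SD) stands for it. All 44 genes had a probe set, and 33 of them had several, against 9010 of the 18193 genes.

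The study sorted 4 populations of bone marrow progenitors from C57BL/6 mice and hybridised their RNA to Affymetrix mouse GeneChips, 3 arrays for each population. All animals were female and 4 to 6 weeks old, no mutation or treatment is named in the labels, and each population gave RNA from 80000 cells. Every population was negative for lineage antigens and Sca-1 and positive for CD117, the receptor Kit. Megakaryocyte-erythroid progenitors (MEP) were negative for CD34, CD27 and the Fc receptors CD16 and CD32, and granulocyte-macrophage progenitors (GMP) were positive for all of these. Common myeloid progenitors (CMP) were positive for CD34, negative for the Fc receptors, and divided by the surface receptor CD27 into CMP CD27+ and CMP CD27-. The comparison of the CMP fractions asks what the CD27 split separates, and GMP and MEP are the committed populations beside which the fractions can be placed. The titles number 3 biological replicates per population and leave unsaid whether these were separate animals or pools, so p-values measure only the spread between these arrays.

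Chromosome duplication starts when the origin recognition complex (ORC) binds DNA and, with CDC6 and CDT1, loads the ring-shaped MCM2-7 helicase in G1, a step called licensing. In S phase CDC45 and the GINS complex join MCM2-7 to form the active helicase, MCM10 helps it to unwind, primase with DNA polymerase alpha lays primers, and polymerases delta and epsilon extend them with the PCNA clamp that the RFC complex loads. Single strands are covered by RPA, Okazaki fragments are trimmed by FEN1 and joined by LIG1, and ribonucleotide reductase, thymidine kinase and thymidylate synthase supply deoxynucleotides. E2F transcription factors drive many of these genes as cells leave G1, and early myeloid and erythroid progenitors are known as rapidly dividing cells.

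Values are on the log2 scale of GCRMA, a method that turns the probes of a set into 1 expression value. Each probe set is centred on its median over the 12 arrays, so a value of 0 is the middle of that gene's own arrays, the level itself is lost, and no gene's level can be set against another's. The base of the logarithm was not stated and was read as 2, GCRMA's usual output, so a difference of 1 is taken as a 2-fold change. Differences were tested with limma over all genes, and a gene passed when its Benjamini-Hochberg adjusted p over the 18193 genes was under 0.05.

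All 10 granulocyte-monocyte markers passed as higher in CMP CD27+ than in CMP CD27- and as higher in GMP than in MEP, and 5 of 8 measured erythroid markers passed the other way in both, where 22.4% and 22.9% of all genes passed in these comparisons. The mean of the granulocyte-monocyte list ran from 2.77 to 3.31 in the CMP CD27+ arrays and from 3.32 to 3.75 in GMP, against -3.26 to -2.65 in CMP CD27- and -4.33 to -2.87 in MEP. That of the erythroid list ran from -3.30 to -2.19 in CMP CD27+ and from -3.63 to -1.92 in GMP, against 1.81 to 1.90 in CMP CD27- and 2.06 to 2.17 in MEP. Of 7 measured megakaryocyte markers, 2 passed as lower and 1 as higher in CMP CD27+ than in CMP CD27- (median of the 7 -1.09), 2 as lower in GMP than in MEP, and 3 as higher in CMP CD27- than in GMP. Their mean was 2.05 in CMP CD27- replicate 1, which stood apart from 0.39 and 0.40 in the other CMP CD27- arrays, and ran from 0.0037 to 0.89 in MEP, from -0.24 to -0.02 in CMP CD27+ and from -1.66 to -0.44 in GMP. All 5 measured mature B cell markers and all 6 of mature T and NK cells varied by less than 0.5 over the 12 arrays. In GMP against MEP, 2 of 8 mature neutrophil markers and 3 of 7 macrophage markers were also higher, with list means of 0.78 to 1.55 and 1.42 to 1.59 in GMP and no mean above 0.61 in any other array. RNA of Cd27 followed the gates, with means of 4.10 in CMP CD27+ and 2.68 in GMP against -2.75 in CMP CD27- and -3.05 in MEP. Cd34 in CMP CD27- and the Fc receptor genes in CMP CD27+ did not follow theirs. For Cd34 the mean was 4.10 in CMP CD27+ and 3.03 in GMP but -3.22 in CMP CD27-, nearer to the -4.91 of MEP, although CMP CD27- was gated as CD34+. The Fc receptor genes Fcgr2b and Fcgr3 had means of 3.38 and 2.20 in CMP CD27+, which was gated as negative for these receptors, against -3.30 and -2.51 in CMP CD27-, -3.79 and -1.64 in MEP and 4.78 and 7.16 in GMP. All results on the fractions carry these differences between label and RNA. Because values are centred per gene, they cannot tell whether a population met its gate. How far these markers, or the mix of cells within a sort, move with the replication genes was not tested, and in sorted bulk samples fewer cells of a type and less RNA per cell cannot be told apart.

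The 250 bases before the start of each gene were searched for the letters of E2F sites (TTTCCCGC, TTTCGCGC, TTTGCCGC or TTTGGCGC on either strand), because E2F factors are the known common regulators of these genes. RefSeq promoters of GRCm38.p6 were given for 37 of the 44 genes; Gins1, Gins2, Gins4, Mcm4, Pole, Prim2 and Rfc2 had no entry. The letters were found in 9 of the 37 (24.3%): Orc1, Orc3, Cdc6, Mcm5, Mcm6, Mcm7, Gins3, Pola1 and Rfc3. Over all genes with a RefSeq promoter there, 583 of 27025 (2.16%) held them. Stretches of 30 bases around 6 of the matches follow, for the licensing genes that come first in the results and for helicase subunits that did not pass in any comparison, each written 5′ to 3′ on the gene's own strand with the matching letters in capitals.
Orc1, chr4:108579416-108579445, plus strand: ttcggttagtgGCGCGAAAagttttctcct
Cdc6, chr11:98908002-98908031, plus strand: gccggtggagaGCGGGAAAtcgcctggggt
Orc3, chr4:34614965-34614994, minus strand: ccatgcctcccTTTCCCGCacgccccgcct
Mcm5, chr8:75109347-75109376, plus strand: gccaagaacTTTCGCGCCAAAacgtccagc
Mcm6, chr1:128359795-128359824, minus strand: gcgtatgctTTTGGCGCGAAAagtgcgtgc
Mcm7, chr5:138172030-138172059, minus strand: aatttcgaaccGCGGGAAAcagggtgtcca

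The Orc1 match ends 20 bases and the Cdc6 match 131 bases before the start of the gene. In Mcm5 and Mcm6 the capitals hold 2 overlapping matches, 1 on each strand. Of the 9 genes with the letters, 2 (Orc1 and Cdc6) passed in at least 1 of the 6 comparisons described next, and of the 28 genes with a promoter entry and no match 14 passed, where 32.2% of all genes did. Orc5, the gene with the largest differences, had no match. A CCAAT box was present in a promoter of 23 of the 37 genes, against 37.5% of all genes. The letters AGATAA or TGATAA, which GATA factors bind, were present for 3 of the 37 genes, against 18.8% of all genes. CCAAT and the GATA letters were also read on both strands and none of these matches is evidence of binding.

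**Figure D1:**
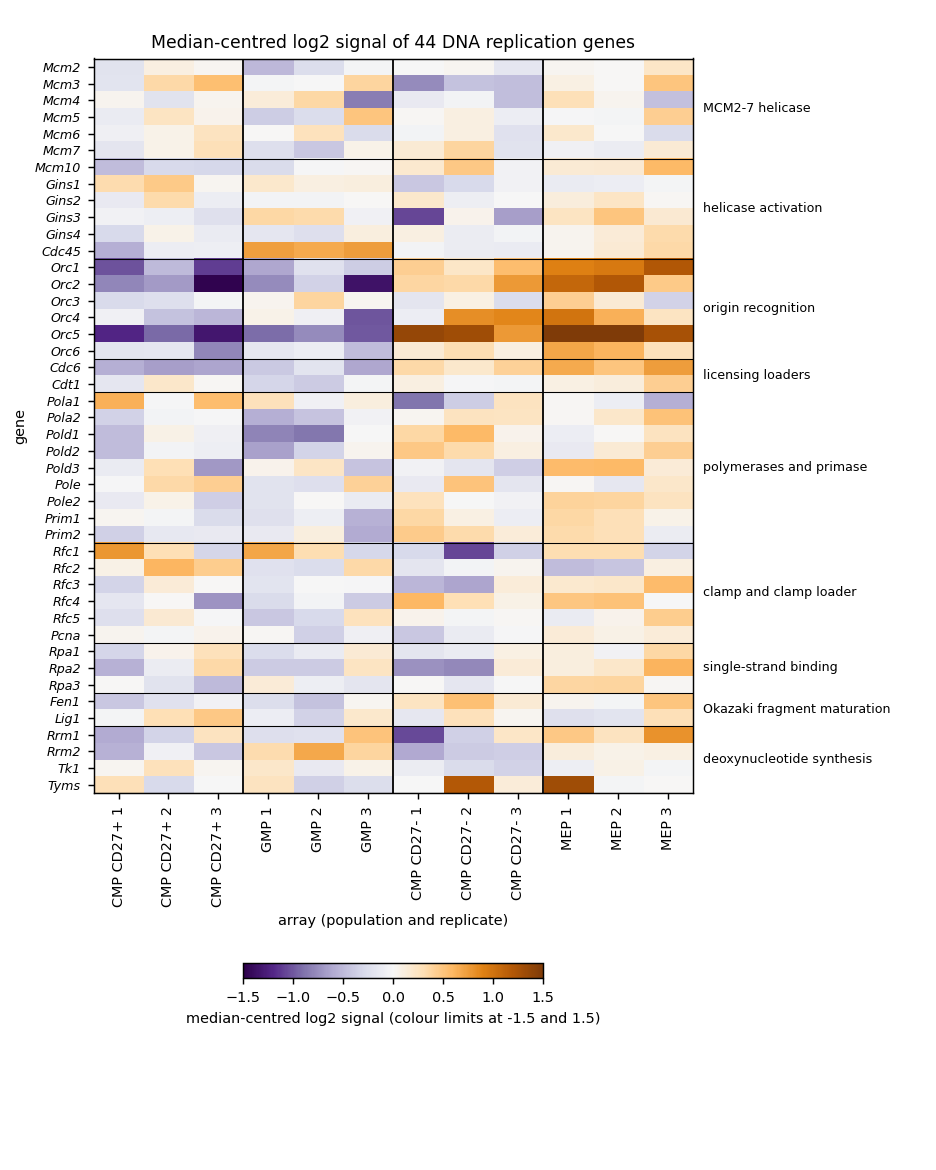
Median-centred log2 values of the 44 DNA replication genes (rows, grouped by role) in the 12 arrays (columns, grouped by population); orange and purple mark values above and below the median of the gene's own arrays, as the colour bar gives. Rows of Orc1, Orc2, Orc5 and Cdc6 divide the CMP CD27+ and GMP arrays from the CMP CD27- and MEP arrays, whereas most MCM2-7, clamp and RPA rows do not.

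Genes of origin recognition and licensing showed the largest differences of the 44. In CMP CD27+ against CMP CD27-, 3 of the 6 Orc genes and Cdc6 were lower in CMP CD27+, where 10.3% of all genes passed in that direction. In GMP against MEP 4 Orc genes, Cdc6 and Cdt1 were lower in GMP, where 11.3% of all genes were. Cdt1 had a mean of 0.02 in each CMP fraction. The low values of the other genes that passed here were in the granulocyte-monocyte marker-high populations and the high values in the erythroid marker-high ones.

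ORC5 is a subunit of the core of the origin recognition complex. Orc5 (probe set 1415830_at, the gene's only one) read -1.21, -0.93 and -1.31 in the CMP CD27+ arrays, -0.92, -0.77 and -0.9995 in GMP, 1.37, 1.30 and 0.77 in CMP CD27-, and 1.62, 1.58 and 1.26 in MEP. All 6 arrays of CMP CD27+ and GMP lay below all 6 of the other populations. The group means were -1.15 ± 0.20 (SD, n = 3) in CMP CD27+, -0.90 ± 0.12 in GMP, 1.15 ± 0.33 in CMP CD27- and 1.49 ± 0.20 in MEP. Orc5 was thus 4.92-fold lower in CMP CD27+ than in CMP CD27- (log2 difference -2.30, SE 0.17, limma adjusted p = 1e-05) and 5.23-fold lower in GMP than in MEP (-2.39, SE 0.17, limma adjusted p = 6.9e-06). Neighbours in the order of levels did not pass: the difference was -0.25 between CMP CD27+ and GMP (adjusted p = 0.75) and -0.34 between CMP CD27- and MEP (adjusted p = 0.82).

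ORC1 is the ATPase of the complex whose amount is known to rise and fall with the cell cycle. Orc1 (1422663_at) read -1.02, -0.50 and -1.11 in CMP CD27+, -0.61, -0.22 and -0.38 in GMP, 0.42, 0.22 and 0.56 in CMP CD27-, and 0.91, 0.96 and 1.20 in MEP. It was lower by 1.28 (SE 0.17) in CMP CD27+ than in CMP CD27-, a 2.43-fold difference with a limma adjusted p of 0.00048. Between GMP and MEP the difference was -1.43 (SE 0.17), 2.69-fold, with an adjusted p of 0.00022. MEP arrays were the highest 3 of the 12 and did not overlap with CMP CD27-, but that step of -0.62 did not pass (adjusted p = 0.46). The gene's other probe set had the same sign in the 4 comparisons that passed and itself passed in 1 of them, CMP CD27- against GMP.

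ORC2 is another subunit of the core. Orc2 (1418227_at) read -0.79, -0.68 and -1.47 in CMP CD27+, -0.77, -0.35 and -1.35 in GMP, 0.37, 0.35 and 0.76 in CMP CD27-, and 1.09, 1.20 and 0.46 in MEP. CMP CD27+ and GMP overlapped, CMP CD27- and MEP overlapped, and the pairs stood apart. It was 2.78-fold lower in CMP CD27+ than in CMP CD27- (-1.47, SE 0.31, limma adjusted p = 0.0072) and 3.34-fold lower in GMP than in MEP (-1.74, SE 0.31, adjusted p = 0.0027). Both other probe sets of Orc2 passed in the same direction in these comparisons, with differences of -1.57 and -1.14 between the CMP fractions and of -1.34 and -1.28 between GMP and MEP.

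CDC6 loads the helicase together with ORC. Cdc6 (1417019_a_at) read -0.56, -0.67 and -0.63 in CMP CD27+, -0.41, -0.20 and -0.61 in GMP, 0.34, 0.20 and 0.40 in CMP CD27-, and 0.67, 0.50 and 0.75 in MEP. The spread within a population was small, with SDs of 0.05 to 0.21, and MEP lay above every other array. Cdc6 was 1.91-fold lower in CMP CD27+ than in CMP CD27- (-0.93, SE 0.10, limma adjusted p = 0.00014) and 2.06-fold lower in GMP than in MEP (-1.04, SE 0.10, adjusted p = 5.9e-05). Orc1, Orc2, Orc5 and Cdc6 also passed in the remaining lineage-crossing comparisons, with differences of -1.26 for Cdc6 to -2.64 for Orc5 in CMP CD27+ against MEP and of 0.72 for Cdc6 to 2.04 for Orc5 in CMP CD27- against GMP. These 16 calls held under every alternative processing that was run, leaving out CMP CD27- replicate 1 included.

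ORC6 is the small subunit that binds more loosely to the others. Orc6 read -0.18, -0.17 and -0.79 in CMP CD27+, -0.16, -0.10 and -0.49 in GMP, 0.16, 0.31 and 0.10 in CMP CD27-, and 0.70, 0.62 and 0.28 in MEP. The low arrays were again those of CMP CD27+ and GMP, without overlap with the other populations. The gene passed in GMP against MEP (-0.78, SE 0.18, limma adjusted p = 0.013), a call lost without MEP replicate 1 (adjusted p = 0.051), and in CMP CD27+ against MEP (-0.91, adjusted p = 0.0053), but not between the CMP fractions (-0.57, adjusted p = 0.057).

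CDT1 delivers MCM2-7 to the origin and is held back by geminin outside G1. Cdt1 had means of 0.21 ± 0.18 in MEP, 0.02 ± 0.18 in CMP CD27+, 0.02 ± 0.07 in CMP CD27- and -0.25 ± 0.19 in GMP, and passed in GMP against MEP alone (-0.46, SE 0.13, limma adjusted p = 0.028). That call was lost without MEP replicate 3, GMP replicate 1 or GMP replicate 2, and also with quantile normalization or median centring of the arrays (adjusted p = 0.067 and 0.059) and in a fit of only the 6 arrays compared (0.078); the largest adjusted p of any alternative was 0.096. Orc4, also a core subunit, had means of -0.35 ± 0.25 in CMP CD27+, -0.34 ± 0.58 in GMP, 0.53 ± 0.55 in CMP CD27- and 0.62 ± 0.37 in MEP, and its differences of -0.88 and -0.96 did not pass (adjusted p = 0.12 and 0.089). Orc3, which carries the E2F letters shown above, differed by -0.07 between the CMP fractions (95% interval -0.50 to 0.37) and by 0.07 between GMP and MEP (-0.36 to 0.50). A 2-fold difference of Orc3 lies outside both intervals, so the 6 Orc genes did not share 1 pattern.

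**Figure D2:**
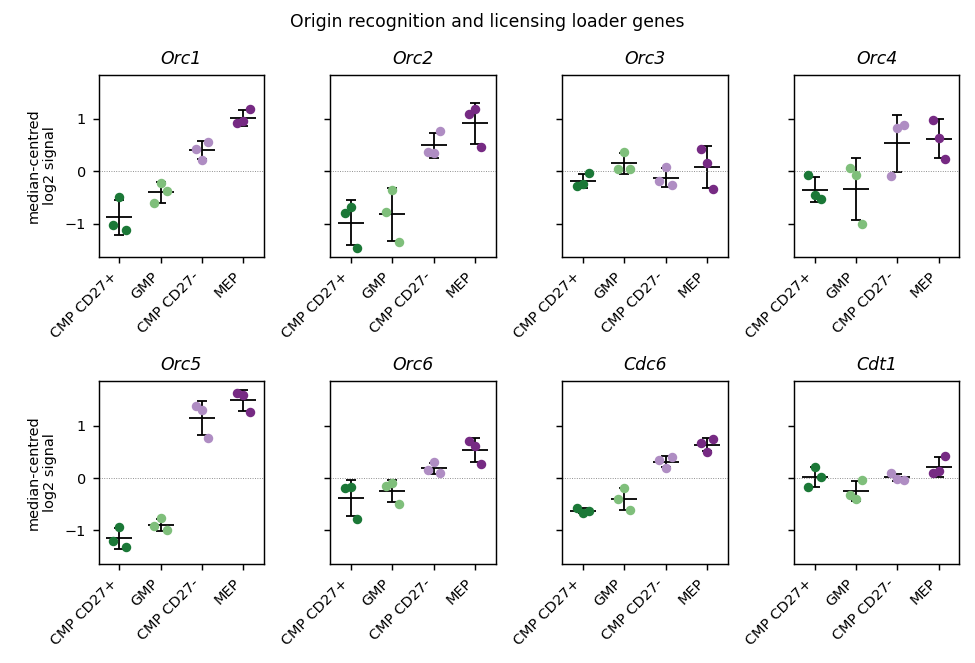
Median-centred log2 values of the 6 Orc genes, Cdc6 and Cdt1 in each array (points), with the mean (long bar) and SD (whiskers) of the 3 arrays of each population. Orc5 separates the populations most, with all CMP CD27+ and GMP arrays at or below -0.77 and all CMP CD27- and MEP arrays at or above 0.77, and Orc3 does not separate them.

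Of the MCM2-7 helicase, 1 of 6 genes passed in at least 1 of the 6 comparisons, where 32.2% of all genes did. Between the CMP fractions Mcm2, Mcm4, Mcm5, Mcm6 and Mcm7 differed by -0.05 (Mcm7) to 0.18 (Mcm4), and between GMP and MEP the 6 genes differed by -0.35 (Mcm2) to 0.03 (Mcm6). The lowest and highest ends of their 95% intervals were -0.76 and 0.63 in GMP against MEP, so a 2-fold difference lies outside each of these. Mcm3, the exception, read -0.19, 0.35 and 0.55 in CMP CD27+, -0.03, -0.01 and 0.39 in GMP, -0.77, -0.45 and -0.47 in CMP CD27-, and 0.08, 0.01 and 0.50 in MEP. The CMP CD27- arrays were the 3 lowest of the 12. Mcm3 was 1.74-fold higher in CMP CD27+ than in CMP CD27- (0.80, SE 0.21, limma adjusted p = 0.023), a call lost without CMP CD27+ replicate 2 or 3 and without CMP CD27- replicate 1 (adjusted p = 0.072, 0.087 and 0.084), with the mean of its probe sets (0.062) and in the fit of 6 arrays (0.074). None of its 4 other probe sets passed between the fractions, and 3 of them had the same sign. The difference of -0.68 in CMP CD27- against GMP had an adjusted p of 0.048 and was lost on leaving out 9 of the 12 arrays in turn: every GMP and CMP CD27- array, MEP replicates 1 and 2 and CMP CD27+ replicate 2. It was also lost under quantile normalization, median centring, array weights, adjustment over all probe sets and robust moderation (adjusted p = 0.052 to 0.076) and with the mean of the probe sets (0.41).

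Helicase activators moved in different directions from one another. CDC45, the factor that completes the active helicase, was highest in GMP. Cdc45 (1416575_at) read -0.56, -0.10 and -0.09 in CMP CD27+, 0.74, 0.68 and 0.74 in GMP, -0.04, -0.11 and -0.12 in CMP CD27-, and 0.04, 0.16 and 0.34 in MEP. All 3 GMP arrays lay above the other 9. Cdc45 was 1.45-fold higher in GMP than in MEP (0.54, SE 0.12, limma adjusted p = 0.01), 1.75-fold lower in CMP CD27- than in GMP (-0.81, SE 0.12, adjusted p = 0.001) and 1.96-fold lower in CMP CD27+ than in GMP (-0.97, SE 0.12, adjusted p = 0.0018). Same-numbered CMP CD27+ and GMP arrays deviated together, and with the replicate number as a block in a fit of those 6 arrays the last of these did not pass (adjusted p = 0.09). It was also lower in CMP CD27+ than in MEP (-0.43, adjusted p = 0.031), a call lost without MEP replicate 2 or 3 (adjusted p = 0.071 and 0.097), under quantile normalization (0.061), with median centring (0.068) and in a fit of those 6 arrays (0.12). The second Cdc45 probe set varied by 0.06 over the 12 arrays and passed nowhere.

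MCM10, which helps the activated helicase to unwind origins, followed the order of the Orc genes at a smaller size. Mcm10 read -0.48, -0.30 and -0.31 in CMP CD27+, -0.27, -0.01 and 0.01 in GMP, 0.18, 0.48 and -0.06 in CMP CD27-, and 0.15, 0.18 and 0.58 in MEP. CMP CD27+ held the 3 lowest arrays, and GMP overlapped with CMP CD27-. It was 1.59-fold lower in CMP CD27+ than in MEP (-0.67, SE 0.16, limma adjusted p = 0.012) and 1.48-fold lower than in CMP CD27- (-0.56, adjusted p = 0.03). The second call was lost without any CMP CD27+ array or without CMP CD27- replicate 1 or 2 (adjusted p = 0.054 to 0.1), and in the fit of 6 arrays (0.067). GINS1 is a subunit of GINS, and Gins1 read 0.32, 0.46 and 0.03 in CMP CD27+, 0.19, 0.10 and 0.11 in GMP, -0.42, -0.29 and -0.06 in CMP CD27-, and -0.12, -0.10 and -0.03 in MEP. Here the high arrays were those of CMP CD27+ and GMP, the reverse of Mcm10 and the Orc genes. Gins1 was 1.44-fold higher in CMP CD27+ than in CMP CD27- (0.53, SE 0.11, limma adjusted p = 0.0081), a call that did not hold with the mean of its probe sets (adjusted p = 0.16) or in the fit of 6 arrays (0.079). Its other calls, 0.36 in CMP CD27+ against MEP (adjusted p = 0.049) and -0.39 in CMP CD27- against GMP (adjusted p = 0.037), were each lost on leaving out 9 of the 12 arrays in turn: every MEP and GMP array for both, CMP CD27+ replicates 1 and 2 and CMP CD27- replicate 2 for the first, and CMP CD27+ replicate 1 and CMP CD27- replicates 1 and 2 for the second. Both were also lost with the replicate block, the mean of the probe sets, adjustment over all probe sets and the fit of 6 arrays, the first with robust moderation and the second with median centring (adjusted p = 0.051 to 0.28). Gins2, Gins3 and Gins4 passed nowhere, where 32.2% of all genes passed in at least 1 comparison. Gins2 was the single gene of the 44 whose 12 arrays spanned less than 0.5.

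**Figure D3:**
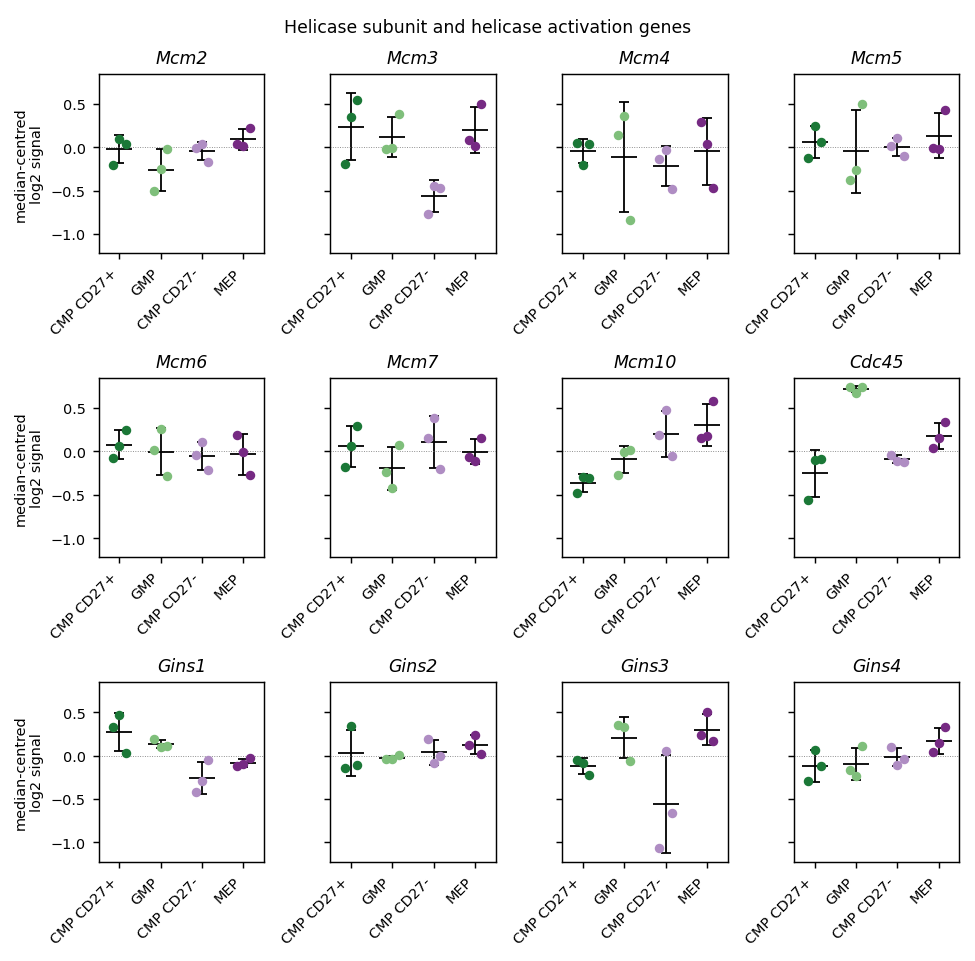
Median-centred log2 values of the MCM2-7, Mcm10, Cdc45 and Gins genes in each array (points), with the mean (long bar) and SD (whiskers) of the 3 arrays of each population. Cdc45 is highest in the GMP arrays (0.68 to 0.74), Mcm3 lowest in the CMP CD27- arrays (-0.77 to -0.45), and the populations overlap for most of the other genes.

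Among the 9 polymerase and primase genes none passed between the CMP fractions, where 22.4% of all genes passed, and 3 were lower in GMP than in MEP, where 11.3% of all genes were. Pola2, the regulatory subunit of polymerase alpha, read -0.35, -0.04 and -0.01 in CMP CD27+, -0.57, -0.44 and -0.05 in GMP, 0.03, 0.25 and 0.24 in CMP CD27-, and 0.01, 0.21 and 0.52 in MEP. Prim1, the catalytic subunit of primase, read 0.03, -0.03 and -0.27 in CMP CD27+, -0.23, -0.09 and -0.55 in GMP, 0.35, 0.08 and -0.09 in CMP CD27-, and 0.36, 0.29 and 0.07 in MEP. Neither overlapped between GMP and MEP, and in both genes the GMP arrays were the low ones. Pola2 differed by -0.60 (SE 0.17, limma adjusted p = 0.03), Prim1 by -0.53 (SE 0.15, adjusted p = 0.033) and Pole2, the second subunit of polymerase epsilon, by -0.45 (SE 0.12, adjusted p = 0.022). Each of these calls was lost on leaving out single arrays: MEP replicates 2 and 3 and GMP replicates 1 and 2 for Pola2 (adjusted p up to 0.11), and MEP replicates 1 and 2 and GMP replicates 1 and 3 for Prim1 and Pole2 (up to 0.11 and 0.083), with CMP CD27- replicate 2 also for Prim1 (0.051). Quantile normalization ended the calls of Pola2 (adjusted p = 0.057) and Prim1 (0.05 after rounding), median centring that of Pola2 (0.059), and the fit of 6 arrays both (0.099 and 0.064). Pole2 had means of 0.34 ± 0.08 in MEP, 0.07 ± 0.17 in CMP CD27-, -0.11 ± 0.10 in GMP and -0.15 ± 0.22 in CMP CD27+, and was also lower in CMP CD27+ than in MEP (-0.49, adjusted p = 0.014, and 0.051 without MEP replicate 1).

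Pold1, the catalytic subunit of polymerase delta, read -0.49, 0.07 and -0.08 in CMP CD27+, -0.80, -0.87 and -0.01 in GMP, 0.36, 0.58 and 0.06 in CMP CD27-, and -0.10, 0.01 and 0.25 in MEP. Its GMP arrays were spread, with replicate 3 at the level of MEP. Pold1 passed in CMP CD27- against GMP (0.89, SE 0.25, limma adjusted p = 0.029) and not without GMP replicate 1 or 2 or CMP CD27- replicate 1 or 2 (adjusted p = 0.079 to 0.11), with the mean of its probe sets (0.071) or in the fit of 6 arrays (0.11). Pola1, Pold2, Pold3, Pole and Prim2 passed in none of the 6 comparisons, where 32.2% of all genes passed in at least 1. Pola1, the catalytic subunit of polymerase alpha, had the highest of the non-passing polymerase differences, 0.73 between the CMP fractions (adjusted p = 0.12).

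The clamp Pcna, the 5 Rfc genes of its loader and the Okazaki fragment genes Fen1 and Lig1 passed in no comparison. Of all genes, 32.2% passed in at least 1 of the 6 comparisons. Between the CMP fractions they differed by -0.61 for Rfc4 to 0.82 for Rfc1, with adjusted p of 0.086 and 0.16, and Fen1 by -0.54 (adjusted p = 0.058). Pcna, often used as a proliferation marker, differed by 0.21 between the CMP fractions (95% interval -0.05 to 0.47) and by -0.26 between GMP and MEP (-0.51 to -0.001). Of the RPA genes, Rpa3, the smallest subunit, read 0.01, -0.21 and -0.49 in CMP CD27+, 0.14, -0.09 and -0.18 in GMP, 0.0009, -0.16 and -0.0009 in CMP CD27-, and 0.37, 0.38 and 0.02 in MEP. MEP held the 2 highest arrays, and its replicate 3 lay within the range of GMP. Rpa3 passed in CMP CD27+ against MEP (-0.49, SE 0.15, limma adjusted p = 0.037), which was lost without any 1 of MEP replicates 1 and 2, GMP replicate 2, CMP CD27+ replicates 2 and 3 and CMP CD27- replicate 1, with median centring or adjustment over all probe sets (adjusted p = 0.052 for each) and in the fit of 6 arrays (0.1).

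Deoxynucleotide supply genes did not follow the Orc order. RRM2 is the regulated small subunit of ribonucleotide reductase. Rrm2 (1416120_at) read -0.55, -0.07 and -0.41 in CMP CD27+, 0.33, 0.69 and 0.39 in GMP, -0.60, -0.39 and -0.37 in CMP CD27-, and 0.12, 0.07 and 0.09 in MEP. GMP was highest, MEP lay between, and both CMP fractions were lowest and overlapped. Rrm2 was 1.90-fold lower in CMP CD27- than in GMP (-0.92, SE 0.13, limma adjusted p = 0.00074) and 1.75-fold lower in CMP CD27+ than in GMP (-0.81, SE 0.13, adjusted p = 0.0074). The second of these passed with the replicate block (adjusted p = 0.027) but not with the mean of the 3 Rrm2 probe sets (adjusted p = 0.072) or in the 6-array fit without the block (0.098). Against MEP, CMP CD27+ was lower by a smaller amount (-0.43, adjusted p = 0.042), a call lost without any MEP array, GMP replicate 3, CMP CD27+ replicate 1 or 3 or CMP CD27- replicate 2. It was also lost under quantile normalization, median centring, adjustment over all probe sets, the mean of the probe sets and the fit of 6 arrays (adjusted p = 0.059 to 0.13). Rrm2 and Cdc45 were the only members that passed between CMP CD27+ and GMP.

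Tk1, thymidine kinase of the salvage route, had means of 0.11 ± 0.14 in CMP CD27+, 0.05 ± 0.17 in GMP, -0.01 ± 0.08 in MEP and -0.24 ± 0.12 in CMP CD27-. It passed between the CMP fractions (0.35, SE 0.10, limma adjusted p = 0.038), a call lost on leaving out 9 of the 12 arrays in turn and kept only without GMP replicate 1, GMP replicate 2 or CMP CD27- replicate 1. The replicate block, adjustment over all probe sets and the fit of 6 arrays ended it too (adjusted p = 0.067, 0.056 and 0.078). Rrm1, the large subunit of the reductase, and Tyms, thymidylate synthase, passed nowhere, where 32.2% of all genes passed in at least 1 comparison. The Tyms means carried 1 high array each, 1.19 for CMP CD27- replicate 2 and 1.30 for MEP replicate 1, beside values of -0.36 to 0.28 in the other 10.

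**Figure D4:**
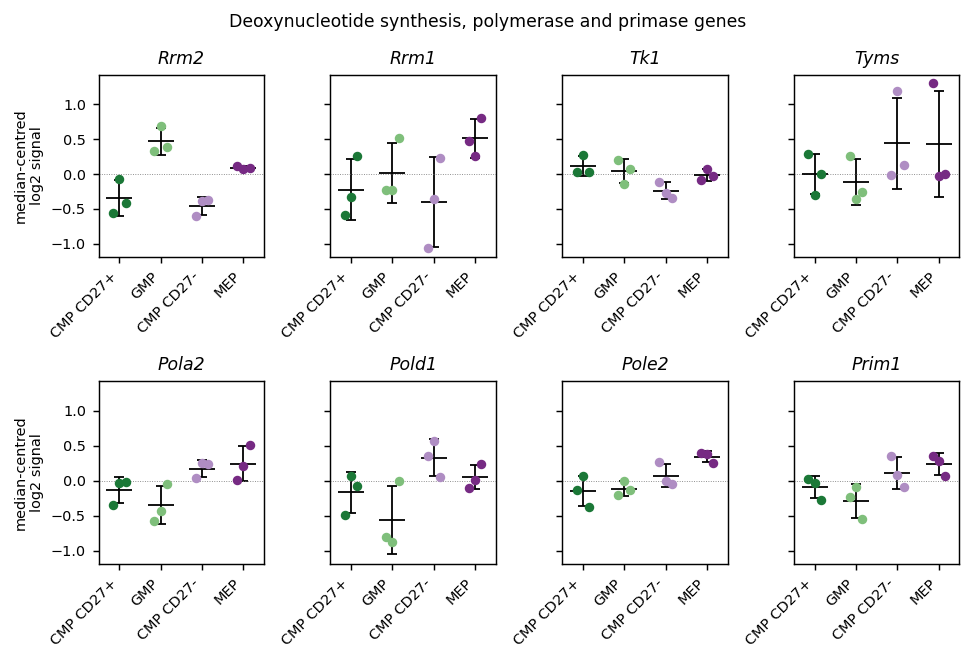
Median-centred log2 values of 4 deoxynucleotide synthesis genes and 4 polymerase and primase genes in each array (points), with the mean (long bar) and SD (whiskers) of the 3 arrays of each population. Rrm2 is highest in GMP (0.33 to 0.69) and Pola2 is lower in GMP than in MEP without overlap.

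Counted over the whole list in the main fit, without regard to direction, the replication genes passed about as often as genes at large. Counts by direction and with the replicate block differ from this in places and are given with their shares below. In CMP CD27+ against CMP CD27-, 8 of 44 passed, 3 higher and 5 lower in CMP CD27+, where 22.4% of all 18193 genes passed (12.1% higher in CMP CD27+ and 10.3% higher in CMP CD27-). The 5 lower genes were Orc5, Orc2, Orc1, Cdc6 and Mcm10, and the 3 higher were Mcm3, Gins1 and Tk1. The median log2 difference of the 44 was -0.02, against -0.03 over all genes, and 15 members had 3 and 3 arrays that did not overlap, a property of 33.6% of all genes. The count fell to 5 without CMP CD27+ replicate 3, when Orc1, Orc2, Orc5, Cdc6 and Gins1 were left.

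GMP against MEP gave 10 passing genes of 44, 1 higher (Cdc45) and 9 lower in GMP, against 22.9% of all genes (11.5% higher in GMP and 11.3% higher in MEP). The 9 lower were Orc5, Orc2, Orc1, Cdc6, Orc6, Pola2, Prim1, Cdt1 and Pole2. Of the 44 differences 35 were negative and their median was -0.32, against -0.04 for all genes. The share of negative differences over all genes was not counted. Without regard to sign, the median size was 0.377 for the list and 0.150 for all genes. More of the listed genes had several probe sets from which the most variable was taken, so these sizes are not on equal terms. Arrays did not overlap for 19 members, and for 40.4% of all genes. Same-numbered GMP and MEP arrays deviated together, and with the replicate number as a block in a fit of these 6 arrays 22 members passed, 3 higher and 19 lower in GMP and including all 10 named above, where 30.4% of all genes passed. The count fell to 6 without GMP replicate 1.

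The differences in these comparisons are taken between arrays that they do not share. Both were tested in the same fit of all 12 arrays, however, so each gene's estimated spread is common to them. Their calls are therefore not independent of each other. Orc1, Orc2, Orc5 and Cdc6 passed in both, which is 4 of the 8 calls between the CMP fractions and 4 of the 10 (40.0%) between GMP and MEP, and each had the same sign in both. Over all 44 genes 28 had the same sign. Neither count was made over all genes, so they cannot show whether this repeat is particular to the list.

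**Figure D5:**
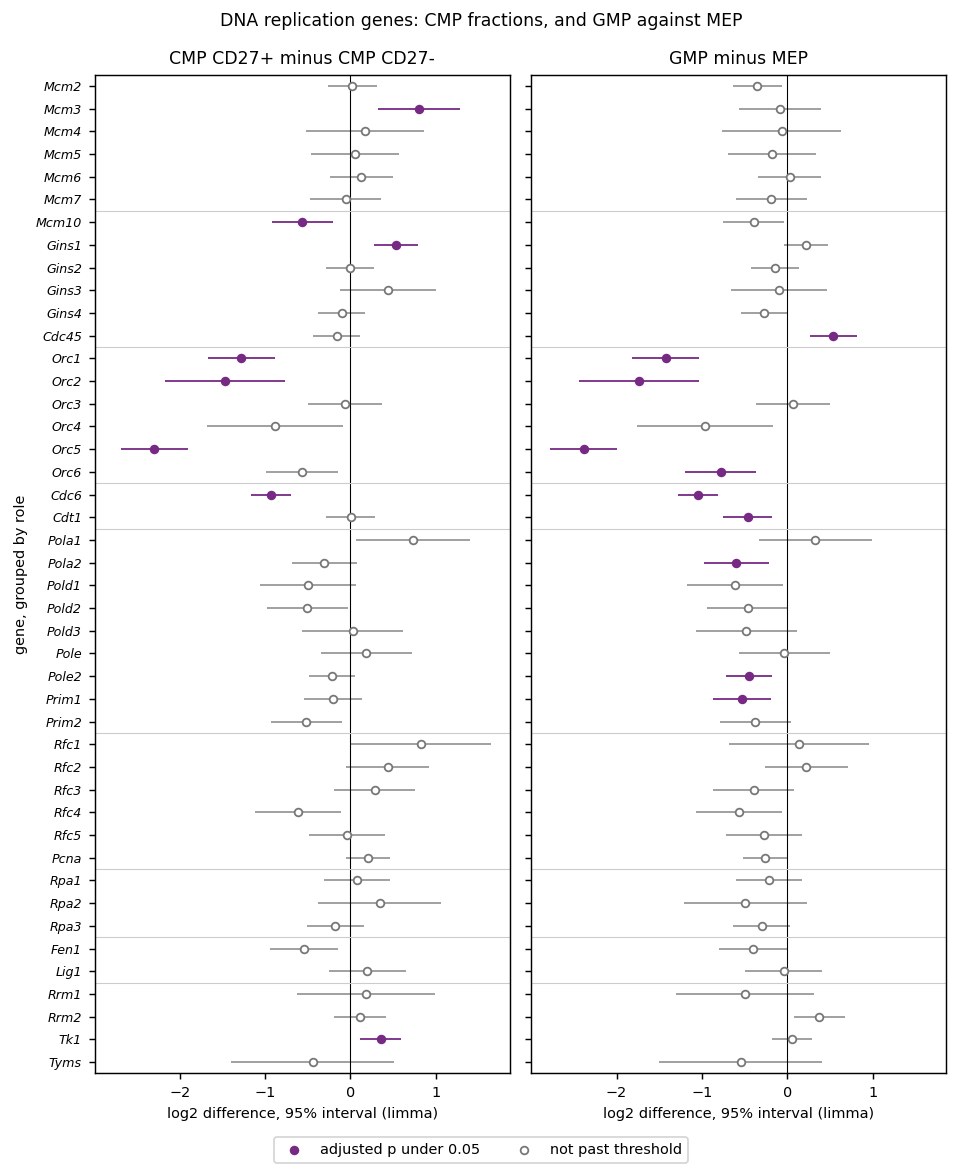
Log2 differences with 95% intervals from limma for the 44 genes, CMP CD27+ minus CMP CD27- (left) and GMP minus MEP (right), with filled points for an adjusted p under 0.05. Orc1, Orc2, Orc5 and Cdc6 lie left of 0 in both panels, and most other intervals reach 0.

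Within the marker-defined sides few members passed. CMP CD27+ against GMP had 2 of 44, both lower in CMP CD27+ (Cdc45 and Rrm2), where 5.24% of all genes passed (2.59% higher in CMP CD27+, 2.65% higher in GMP). With the replicate block 1 remained, Rrm2, where 2.87% of all genes passed. CMP CD27- against MEP had 0 of 44 by limma, where 0.033% of all genes (6) passed; 10 members had an unadjusted p under 0.05, all lower in CMP CD27-, where 6.29% of all genes had one in either direction. With array weights 8 passed, where 10.6% of all genes did. Without array weights the 44 differences had a median of -0.18, against -0.02 over all genes, and 35 were negative, a share not counted over all genes. The count over all genes in this comparison moved with single arrays, to 52 without CMP CD27- replicate 3, 27, 25 and 23 without MEP replicate 1, MEP replicate 3 and CMP CD27- replicate 1, 12 without CMP CD27- replicate 2, and 4 without MEP replicate 2 or CMP CD27+ replicate 1.

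CMP CD27+ against MEP, which shares arrays with comparisons above, had 11 of 44 members passing, 1 higher (Gins1) and 10 lower in CMP CD27+, where 24.8% of all genes passed (11.9% higher in CMP CD27+, 12.9% higher in MEP). The count fell to 7 without MEP replicate 1 and to 7 without MEP replicate 2. CMP CD27- against GMP had 9, of which 5 were higher in CMP CD27- (Orc1, Orc2, Orc5, Cdc6 and Pold1) and 4 higher in GMP (Cdc45, Rrm2, Gins1 and Mcm3), where 22.3% of all genes passed (10.2% higher in CMP CD27- and 12.1% higher in GMP). Over the 4 populations together, the moderated F test of limma called 10 of 44 members, where 26.8% of all genes were called. In all, 17 members passed in at least 1 pairwise comparison, where 32.2% of all genes did, and 27 in none.

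The highest group mean was in MEP for 25 of the 44 genes, against 50.2% of all genes, in CMP CD27+ for 10 (16.6% of all genes), in CMP CD27- for 6 (18.7%) and in GMP for 3 (14.5%). The lowest was in CMP CD27+ for 15, in GMP for 14, in CMP CD27- for 14 and in MEP for 1, where the shares over all genes were 50.1%, 22.3%, 15.6% and 11.9%. These shares include genes that barely varied. Ltf and Cd22, for example, each spanned 0.07 and were highest in MEP and lowest in CMP CD27+, whereas Pax5, spanning 0.14, was highest in CMP CD27-. How much of the shares such genes make up was not counted, so they cannot show whether the members are typical. Over the 12 arrays the median gene of the list spanned 1.09, and the median over all genes was 0.855.

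Another 80 genes that act in or around replication, 74 of them measured, were read beside the 44: regulators of licensing and firing, fork protection and checkpoint genes, further polymerase and repair subunits, nucleotide enzymes, chromatin assembly factors, and E2F and pocket proteins. Between the CMP fractions 26 of 74 passed, 10 higher and 16 lower in CMP CD27+, and between GMP and MEP 21 passed, 4 higher and 17 lower in GMP. The background shares are the 22.4% and 22.9% above. This list was also chosen with earlier results of these data known, so a count above these shares is not independent support. Cyclin E1, which with CDK2 starts S phase, had the largest difference of the list. Ccne1 read -1.90, -1.08 and -1.89 in CMP CD27+, -1.72, -1.26 and -1.62 in GMP, 1.85, 1.55 and 1.08 in CMP CD27-, and 1.97, 1.88 and 1.82 in MEP. It divided the arrays as Orc5 did, by -3.11 between the CMP fractions (limma adjusted p = 1.7e-05) and -3.42 between GMP and MEP (adjusted p = 8.1e-06).

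Among the genes that passed, those lower in CMP CD27+ with the next largest differences were the origin-firing factor Recql4 (-1.60), the E2F partner Tfdp2 (-1.39), the pocket protein gene Rb1 (-1.16, limma adjusted p = 0.049), the nuclease Dna2 (-0.94) and the mitochondrial kinase Tk2 (-0.87). In GMP against MEP they were the salvage kinase Dck (-1.68), Tfdp2 (-1.57), Recql4 (-1.35), the fork protein Timeless (-1.25) and Donson (-1.14). Passing genes higher in CMP CD27+ included Shmt1 of folate metabolism (2.21), the repressor E2f7 (1.95), the chromatin remodeller Hells (1.69, adjusted p = 0.045), the polymerase delta subunit Pold4 (1.41), the pocket protein gene Rbl2 (0.90, adjusted p = 0.05 after rounding) and Uhrf1 (0.71). Shmt1 (2.34), E2f7 (1.84) and Pold4 (1.37) were also higher in GMP than in MEP, as was Ung (0.42), whose call was lost with the replicate block (adjusted p = 0.14). Among the 12 fits without 1 array, the calls between the fractions held only without MEP replicate 3, GMP replicate 3 or CMP CD27+ replicate 1 for Rb1, only without CMP CD27- replicate 3 for Hells, and only without MEP replicate 3, GMP replicate 2 or CMP CD27- replicate 3 for Rbl2. These 3 calls were also lost with median centring, the replicate block, adjustment over all probe sets and the fit of 6 arrays, Rb1 and Rbl2 with robust moderation, Rb1 under quantile normalization and Hells with the mean of its probe sets. The call of Tk2 between the fractions was lost without CMP CD27+ replicate 1, that of Uhrf1 without CMP CD27+ replicate 2 or 3 or CMP CD27- replicate 1 or 2, and that of Ung without MEP replicate 1 or 2 or GMP replicate 1 and in the fit of 6 arrays (adjusted p = 0.11). CMP CD27+ against GMP had 1 gene of the 74, Dck (0.84, adjusted p = 0.011, but 0.075 with the replicate block, 0.054 in the fit of 6 arrays and 0.098 with the mean of its probe sets), and CMP CD27- against MEP had 0 by limma, with 17 at an unadjusted p under 0.05 and 19 under array weights.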

How the data were processed

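Expression was measured on 12 Affymetrix arrays. The authors deposited log2 expression values of 45037 probe sets. GCRMA is the method named by the submitters' processing notes. Its version and the base of the logarithm were not given in the sources used here, and log2 was taken because that is GCRMA's usual output. The median of every probe set over the 12 arrays lies within 5e-07 of 0, so the deposited log2 values are relative and no filter on signal could be set. Array medians ran from -0.0267 to 0.0549. The annotation gave 1 symbol for 34945 probe sets, several for 932 and none for 9160.

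limma 3.58.1 in R 4.3.3 was fitted to all probe sets and 12 arrays with 1 mean per group, 6 contrasts and empirical Bayes moderation (prior degrees of freedom 0.992). Tests were two-sided, and p-values were adjusted over 18193 genes by the Benjamini-Hochberg method. The code was tested on simulated data. Precision is limited by 3 arrays per group: the median SE of a difference was 0.144 over all genes and 0.185 over the 44.

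The members and lists were chosen with earlier results of these data known. All 12 values are printed for the 14 genes with the widest group means among those that passed, and of the other replication genes up to 6 per direction are named. Replicate numbers come from the titles. Deviations of same-numbered arrays correlated at 0.26 to 0.60 for GMP and MEP and at 0.15 to 0.54 for CMP CD27+ and GMP, over 0.1 in every pair; the other comparisons had at least 1 pair under 0.1. The 6-array fits with a block were chosen after seeing this. Alternatives were quantile normalization, median centring, array weights (gene-by-gene estimate, since the default one did not converge), a replicate block, the mean of a gene's probe sets, a filter on range at 0.5, adjustment over all probe sets, robust moderation, 6-array fits and leaving out each array. Promoter sequences are RefSeq's. RNA quality and scan batch were not analysed here.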

Additional observations from a re-analysis of the deposited data

How the results depend on the processing

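Of the 40 calls of replication genes, 21 held under every alternative, 19 were lost under at least 1 and 0 reversed. Of 46 calls of other replication genes, at most 6 with the largest differences per direction and comparison, 33 held, 13 were lost under at least 1 and 0 reversed. The cause of the changes below was not tested, except where fewer genes or arrays enter by construction. Where no count over all genes is given for a setting, a count of members cannot be set against genes at large.

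Array weights, which ran from 0.184 for CMP CD27- replicate 3 to 11.1 for MEP replicate 2, moved most counts. The 44 genes then gave 18 calls between the CMP fractions, 22 in GMP against MEP, 8 in CMP CD27- against MEP, 25 in CMP CD27+ against MEP, 18 in CMP CD27- against GMP and 33 by the F test. The 74 other replication genes gave 42 in GMP against MEP, 4 in CMP CD27+ against GMP, 19 in CMP CD27- against MEP, 51 in CMP CD27+ against MEP and 34 in CMP CD27- against GMP. All genes gave 7272 between the CMP fractions (2714 higher, 4558 lower in CMP CD27+), 8930 in GMP against MEP (2893 higher, 6037 lower in GMP), 1637 in CMP CD27+ against GMP, 1932 in CMP CD27- against MEP, 11902 in CMP CD27+ against MEP (3175 higher, 8727 lower) and 6843 in CMP CD27- against GMP (4080 higher, 2763 lower).

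With the replicate number as a block in the 12-array fit, the 44 genes gave 17 calls in CMP CD27+ against MEP, 14 in CMP CD27- against GMP and 16 by the F test. In 6-array fits with the block, where the numbers pair the arrays, the 44 genes gave 22 in GMP against MEP and 1 in CMP CD27+ against GMP, the other replication genes 39 and 2, and all genes 522 in CMP CD27+ against GMP. Apart from Cdc45, Dck and Ung, this block ended no call of a member, or of those 46, in those 2 comparisons. Without a block, 6-array fits gave 5 members between the CMP fractions and 1 in CMP CD27+ against GMP, and, over all genes, 491 in CMP CD27+ against GMP and 0 in CMP CD27- against MEP.

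The mean of all probe sets gave 1 member and 0 other replication genes in CMP CD27+ against GMP, and 1 other replication gene in CMP CD27- against MEP. The filter on range tested fewer genes and gave 14 members in CMP CD27- against GMP, 2 other replication genes in CMP CD27+ against GMP, and 1 other gene and 19 genes in all in CMP CD27- against MEP. Quantile normalization gave 1 other replication gene there.

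Leaving out 1 array at a time, the counts for the 44 genes ran from 5 to 9 between the CMP fractions, 6 to 11 in GMP against MEP, 2 to 3 in CMP CD27+ against GMP, 0 to 0 in CMP CD27- against MEP, 7 to 11 in CMP CD27+ against MEP, 6 to 11 in CMP CD27- against GMP and 7 to 12 by the F test. In the same order of pairs, the other replication genes ran from 18 to 26, 16 to 24, 1 to 3 (3 without CMP CD27- replicate 3), 0 to 1, 19 to 33 and 15 to 24. All genes ran from 3455 to 5082, 3415 to 4656, 652 to 1012, 4 to 52, 3725 to 5438 and 3291 to 4781. Probe sets left uncertain which transcript moved: of the 40 calls, 12 rest on a gene's only probe set, and 7 of the other 28 had a further probe set past the threshold the same way and 0 the opposite way.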
